A study of Rattus norvegicus with 12 samples.

Results

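Described here are 9 genes of acid-base handling, taken by name from the gene table: the cytosolic Car2, Car3 and Car13, the membrane-bound Car4, Car9, Car12 and Car14, the sodium-proton exchanger Slc9a3 and the chloride-bicarbonate exchanger Slc4a2. They are 9 of 17450 genes in the table, and all 9 passed the filter on low counts that left 13761 genes tested. Carbonic anhydrases interconvert carbon dioxide and bicarbonate with a proton, and so set how fast a tissue can move acid. Cytosolic forms work with transporters that carry protons or bicarbonate across the membrane, and membrane-bound forms catalyse the same reaction at the cell surface. In the esophagus this machinery is known for the defence of the epithelium against refluxed acid, and one isoform, Car3, is known for its abundance in skeletal muscle.

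The tissue was esophagus of rats. In the BE group the rats had undergone esophagoduodenostomy (EDA) surgery, which joins the esophagus to the duodenum and serves as a model of Barrett's esophagus, and in the NC group they were untreated. Each group had 3 input RNA-seq libraries, read as gene counts, and 3 libraries immunoprecipitated (IP) with an antibody against N6-methyladenosine (m6A), read as lists of peaks, which makes 12 libraries in 4 groups. The labels give neither strain, age, sex nor time after surgery. They also do not say that each library stems from a rat of its own. The p-values therefore reflect variation among these particular libraries, and that variation may be technical.

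Input libraries held 11213531 to 17471748 counts. Levels are CPM (counts per 1000000 counts of the library, scaled by TMM factors). Changes are written as the log2 ratio, BE divided by NC, ± SE. Summed over 9 squamous markers, BE libraries held 56308 to 60550 CPM, against 32199 to 43643 CPM in NC libraries. Summed over 14 striated muscle markers, they held 1292 to 1923 CPM in BE and 31402 to 34174 CPM in NC. Markers of simple columnar epithelium were mixed. Epcam supplied 129 to 171 CPM of a list sum of 131 to 343 CPM in BE. In NC it supplied 72.3 to 76.9 CPM of 76.8 to 85.0 CPM. The intestinal genes Vil1 and Muc2 had no count in BE, but were scarce in NC too (3 and 9 counts in all). Krt8 counts were 177, 11 and 10 (BE) against 5, 5 and 7 (NC), and those of Cdh17 86, 0 and 9 against 0, 0 and 1. Krt19 leaned the other way, with 38 counts over BE and 71 over NC libraries. Pigr (2659 counts) and Krt18 (635 counts) were high in BE replicate 1 only. Krt20 had 38 counts, all from BE replicate 2. BE replicate 1 stood apart, with 7501 CPM summed over 8 hepatocyte markers. In the other BE libraries that sum was 60.3 and 75.3 CPM, and NC libraries held 105 to 152 CPM. In tissue RNA, a change in the number of cells of one kind and a change in RNA per cell cannot be told apart.

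Of the 9 genes, 4 rose in BE (Car2, Car13, Car12 and Slc4a2), 3 fell (Car3, Car14 and Car4), and Slc9a3 and Car9 did not pass (quasi-likelihood test of edgeR at a threshold of 0.05 on p adjusted by Benjamini-Hochberg over all genes tested). Over all genes tested, 43.6% passed, 21.8% upwards and 21.8% downwards, that is 2999 and 2996 genes; without TMM scaling these were 4536 and 2162. BE and NC libraries did not overlap for 7 of the 9 genes, 4 with BE above and 3 with BE below, beside 56% of all genes tested (28.2% above and 27.8% below). The median log2 fold change was 0.70 over the 9 genes and 0.03 over all genes. Without BE replicate 1 the same 4 genes rose and the same 3 fell.

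**Figure D1:**
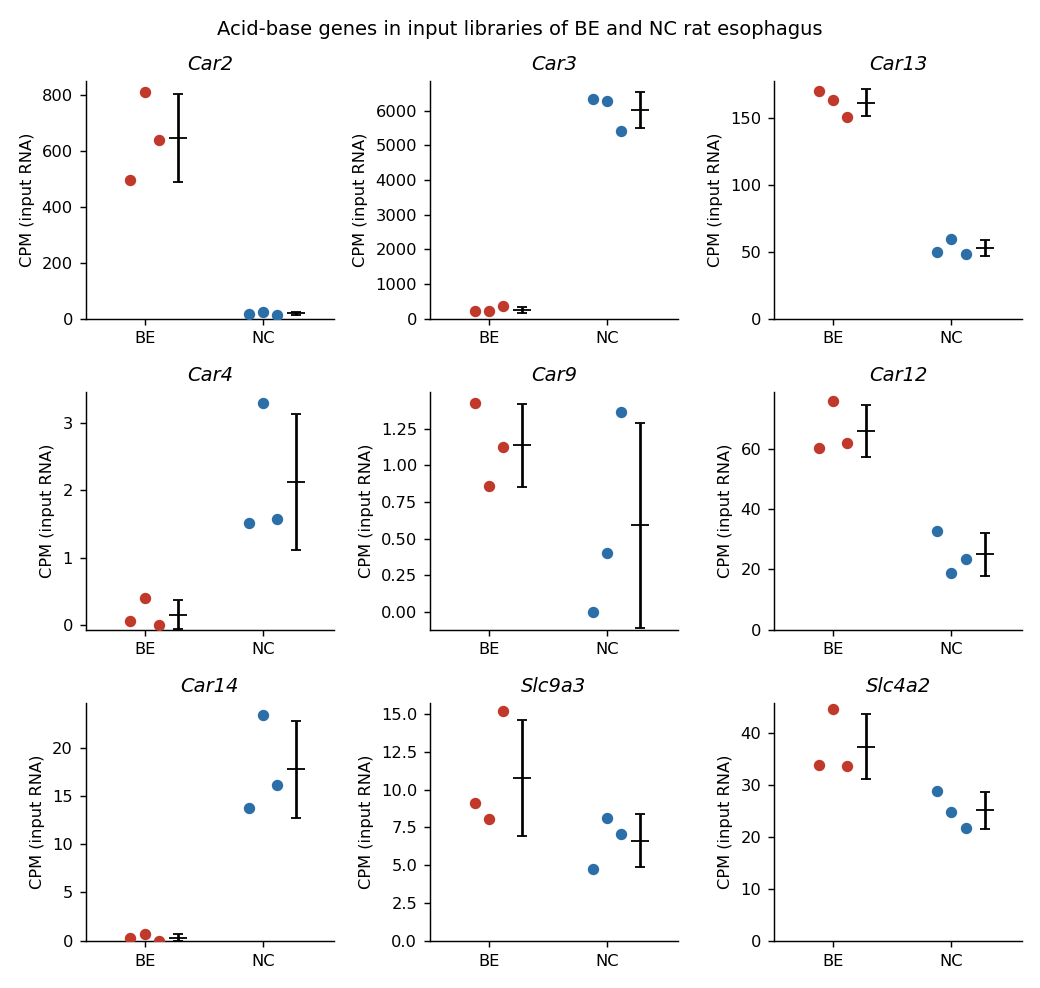
Level of each of the 9 genes in CPM in the BE and NC input libraries, 3 points per group, with the mean and SD beside them; each panel has its own linear axis. BE and NC points are fully separate for Car2, Car3, Car13, Car4, Car12, Car14 and Slc4a2, and overlap for Car9 and Slc9a3.

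The cytosolic enzymes moved in opposite directions. Car2, the fast and widely expressed cytosolic isoform, stood at 496, 810 and 638 CPM in BE replicates 1 to 3, against 16.9, 23.6 and 14.8 CPM in NC replicates 1 to 3. Every BE library was far above every NC library, and the lowest BE value was that of replicate 1. The mean was 648 ± 157 CPM in BE and 18.4 ± 4.58 CPM in NC (SD, n = 3 each), 35.2 times as high in BE. The log2 fold change was 5.13 ± 0.26 (edgeR, adjusted p = 5.1e-06). All 9 squamous markers tested rose as well, beside 21.8% of all genes, with a median log2 fold change of 1.62. Their sum, mostly of Krt4 and Krt13, was 1.51 times as high in BE. Red cells also hold carbonic anhydrase, and 5 erythroid markers summed to 76.1 to 104 CPM in BE and 93.3 to 300 CPM in NC. The part of either in the rise of Car2 was not tested.

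Car13, a further cytosolic isoform, stood at 170, 163 and 151 CPM in BE, against 49.7, 59.3 and 48.6 CPM in NC. The groups were well apart, with little spread in either. Its log2 fold change was 1.62 ± 0.12 (edgeR, adjusted p = 5.7e-06), beside the median of 1.62 over the squamous markers, whose part in it was not tested. Single squamous markers ran widely, from 0.41 for Krt4 to 3.58 for Krt14. The marker sum was 1.51 times as high in BE, against 3.07 times for the mean of Car13.

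Car3, the low-activity isoform of skeletal muscle and adipocytes, went the other way. It stood at 208, 212 and 353 CPM in BE, against 6346, 6279 and 5412 CPM in NC. The highest BE library lay far below the lowest NC library. The mean was 257 ± 82.8 CPM in BE and 6012 ± 521 CPM in NC (SD, n = 3 each), a log2 fold change of -4.55 ± 0.24 (edgeR, adjusted p = 2.3e-06).

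The fall of Car3 was close in size to that of striated muscle transcripts. Of 12 tested muscle markers 10 fell and 2 did not pass, with a median log2 fold change of -4.43, beside 21.8% of all genes that fell. Per 1000 CPM of the muscle marker sum, a ratio chosen after the values were seen, Car3 stood at 141, 164 and 184 CPM in BE and at 202, 199 and 158 CPM in NC. These ratios overlapped between the groups (two-sided exact permutation test, p = 0.3, where 0.1 is the smallest p that 3 against 3 can give). With so few libraries the test cannot show that the ratio was unchanged. Adipocyte markers were lower as well, at 122 to 243 CPM in BE and 375 to 511 CPM in NC for the sum of 8 genes. Of these 8, 5 fell and 3 did not pass, beside 21.8% of all genes that fell. The leptin gene Lep had no count in BE. The part of muscle or of adipocytes in the fall of Car3 was not tested.

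**Figure D2:**
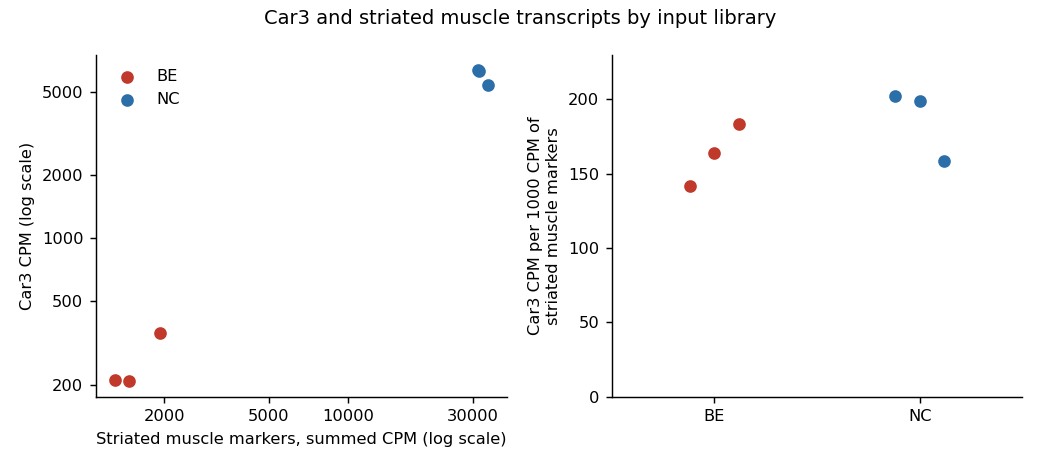
Left, Car3 CPM against the summed CPM of 14 striated muscle markers in each input library, both on log axes; right, Car3 CPM per 1000 CPM of those markers, with 3 points per group. The BE libraries lie low on both measures at left, while at right the BE ratios of 141 to 184 overlap the NC ratios of 158 to 202.

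Car2, Car3 and Car13 lie on chromosome 2 and, in the RefSeq gene order of assembly GRCr8, follow each other with only Car1 between Car3 and Car13 among protein-coding genes. The cluster thus held genes that rose and one that fell. Car1 was not found in the gene table under that symbol or as Ca1, so no level of it can be given.

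The make-up of carbonic anhydrase reads differed between the groups. Of the reads on the 7 carbonic anhydrases, Car3 took 22.2%, 16.8% and 29.3% in BE replicates 1 to 3, against 98.2%, 98.0% and 98.1% in NC replicates 1 to 3. Car2 took 53.0%, 64.2% and 53.0% in BE, against 0.262%, 0.368% and 0.268% in NC. The groups did not overlap for either gene (two-sided exact permutation test, p = 0.1, the smallest that 3 against 3 can give). The shares come from the same counts as the levels above, and a larger share of any gene lowers the rest. The test thus adds no separate support. Car13 made up 12.5% to 18.2% in BE and 0.769% to 0.926% in NC, and Car12 5.12% to 6.41% in BE and 0.295% to 0.505% in NC. These are shares of reads without correction for transcript length. The summed level of the 7 was 936, 1263 and 1204 CPM in BE, against 6460, 6408 and 5517 CPM in NC. Leaving out Car3 turned the order round: the other 6 summed to 728, 1051 and 851 CPM in BE and 114, 129 and 106 CPM in NC.

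**Figure D3:**
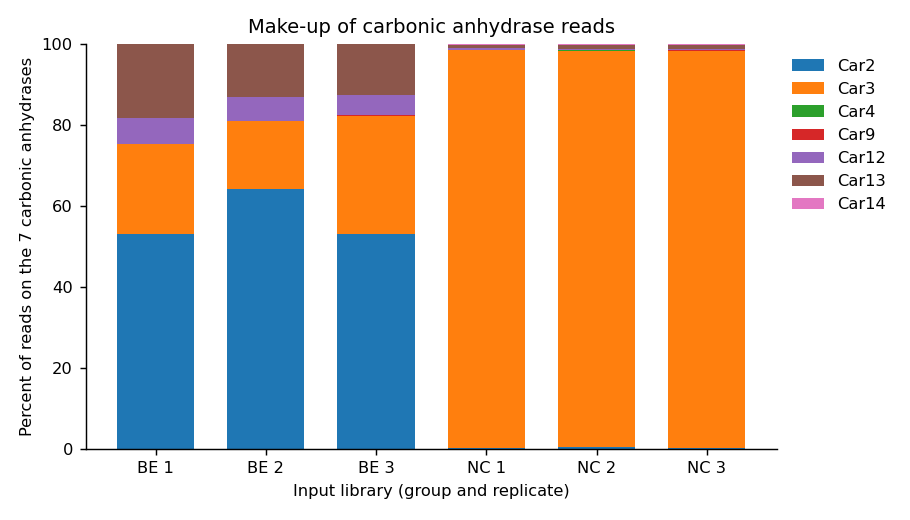
Percent of the reads on 7 carbonic anhydrases that fell on each of them, as stacked bars for the 3 BE and the 3 NC input libraries. Car3 fills 98.0% to 98.2% of the NC bars, while Car2 is the largest block of each BE bar at 53.0% to 64.2%.

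Among the membrane-bound enzymes, Car12 rose and Car14 and Car4 fell. Car12, a transmembrane enzyme whose catalytic domain faces outwards, stood at 60.0, 75.8 and 61.7 CPM in BE, against 32.6, 18.9 and 23.3 CPM in NC. The groups did not overlap. Its log2 fold change was 1.40 ± 0.20 (edgeR, adjusted p = 0.00040). Squamous markers had a median of 1.62 in a range of 0.41 to 3.58. Their sum was 1.51 times as high in BE, against 2.64 times for the mean of Car12, and their part was again not tested.

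Car14, another transmembrane enzyme, had 5, 12 and 0 counts in BE, against 137, 349 and 224 counts in NC. In CPM it stood at 0.263, 0.688 and 0 in BE and at 13.8, 23.4 and 16.1 in NC, so that it was near the limit of detection in BE only. Car14 thus had a log2 fold change of -5.78 ± 0.78 (edgeR, adjusted p = 0.00061). Per 1000 CPM of the striated muscle markers, a ratio also chosen after the values were seen, Car14 stood at 0.179, 0.533 and 0 CPM in BE and 0.439, 0.741 and 0.471 CPM in NC (two-sided exact permutation test, p = 0.3). Only BE replicate 2, with 12 counts, overlapped the NC values. A test on so few counts and libraries cannot show that the ratio was unchanged. The median log2 fold change of the muscle markers was -4.43, and the part of muscle in the fall of Car14 was not tested.

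Car4, which is anchored to the outer membrane by a lipid and is known from capillary endothelium and muscle, was rare throughout. It had 1, 7 and 0 counts in BE, against 15, 49 and 22 counts in NC, or 0.0527, 0.401 and 0 CPM in BE and 1.51, 3.29 and 1.58 CPM in NC. The log2 fold change was -3.76 ± 1.14 (edgeR, adjusted p = 0.022), and the call ended without BE replicate 3 (-3.19, adjusted p = 0.058), without NC replicate 1 (-3.96, 0.051) and without NC replicate 2 (-3.30, 0.12). The 7 endothelial markers summed to 348 to 380 CPM in BE and 301 to 352 CPM in NC. Striated muscle markers summed to 1292 to 1923 CPM in BE and 31402 to 34174 CPM in NC. For 7 smooth muscle markers the sum was 499 to 602 CPM in BE and 4122 to 4778 CPM in NC. The part of any of these in the fall of Car4 was not tested.

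Car9, the tumour-associated transmembrane enzyme induced by hypoxia, was rare in both groups. It had 27, 15 and 20 counts in BE, against 0, 6 and 19 counts in NC. In CPM, NC replicate 3 at 1.36 lay above BE replicates 2 and 3 at 0.860 and 1.13. The log2 fold change of 0.90 ± 1.07 did not pass (edgeR, adjusted p = 0.53), and it was 2.34 without NC replicate 3, which did not pass either (adjusted p = 0.22).

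Of the transporters, Slc4a2, the basolateral anion exchanger AE2 that lets bicarbonate out in exchange for chloride, stood at 33.9, 44.6 and 33.7 CPM in BE, against 28.8, 24.9 and 21.8 CPM in NC. Each BE library was above each NC library, though the gap was small. This was a log2 fold change of 0.57 ± 0.18 (edgeR, adjusted p = 0.027). The call ended without BE replicate 2 (0.42, adjusted p = 0.11), without NC replicate 2 (0.57, 0.084) and without NC replicate 3 (0.48, 0.11).

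Slc9a3, the sodium-proton exchanger NHE3 of absorptive epithelia, stood at 9.11, 8.03 and 15.2 CPM in BE, against 4.73, 8.13 and 7.04 CPM in NC. BE replicate 2 lay just under the highest NC library. The log2 fold change of 0.70 ± 0.34 did not pass (edgeR, adjusted p = 0.13), and it passed without TMM scaling (0.97, adjusted p = 0.039). That setting also moved the median of all genes up by 0.28.

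Other genes of the same pathway were read from 6 lists drawn up for acid-base handling. Of 63 tested, 16 rose, 9 fell and 38 did not pass, with a median log2 fold change of 0.06. The background was 21.8% in each direction. Without TMM scaling, 24 rose and 6 fell. Without BE replicate 1, 16 rose and 10 fell, and without NC replicate 1, 12 rose and 6 fell.

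Among 4 further carbonic anhydrases tested, 2 fell and 2 did not pass, beside 21.8% of all genes that fell. Car7, a cytosolic isoform, had no count in BE and 2.41, 4.10 and 3.45 CPM in NC, and was at least 62.0-fold lower in BE, taking 3 counts summed over the BE libraries as the floor. Car11, a related protein without catalytic activity, fell to 1.19 ± 0.661 CPM in BE, against 10.4 ± 2.26 CPM in NC (-3.11 ± 0.50). The mitochondrial Car5b (15.7 ± 4.21 CPM in BE and 23.7 ± 9.44 CPM in NC) and Car8 (3.94 ± 2.15 and 2.75 ± 1.20 CPM, BE before NC) did not pass. Car5b passed downwards without NC replicate 1 (-0.89, adjusted p = 0.026).

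Of 15 bicarbonate and anion transporters tested, 2 rose, 2 fell and 11 did not pass, beside 21.8% of all genes in each direction. Slc4a7, an electroneutral sodium-bicarbonate cotransporter that loads cells with base, stood at 230, 282 and 268 CPM in BE, against 38.7, 38.8 and 40.4 CPM in NC (log2 fold change 2.73 ± 0.12; edgeR, adjusted p = 1.3e-07). Slc4a11 rose by 1.42 ± 0.43, a call that ended without BE replicates 2 or 3 and without NC replicates 2 or 3 (adjusted p of 0.057 to 0.075). Slc4a9 and the electrogenic cotransporter Slc4a4 fell by 2.00 and 1.29 on the log2 scale, and the call of Slc4a4 ended without NC replicate 1 (adjusted p = 0.070). The anion transporters Slc26a2 (63.7 ± 15.7 CPM in BE and 61.1 ± 0.372 CPM in NC) and Slc26a9 (31.7 ± 5.59 CPM in BE and 31.5 ± 9.24 CPM in NC) did not pass.

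Of 13 sodium-proton exchangers and partners tested, 4 rose, 4 fell and 5 did not pass, beside 21.8% of all genes in each direction. Slc9a3r1, a scaffold that binds Slc9a3, averaged 130 ± 13.7 CPM in BE and 79.1 ± 15.8 CPM in NC (0.72 ± 0.16), and the endosomal exchanger Slc9a9 rose by 0.78 ± 0.14. Slc9a2, an epithelial exchanger, fell to 0.196 ± 0.241 CPM in BE, against 4.43 ± 1.85 CPM in NC. Named after their values were seen, Slc9a5 rose by 3.27 and Slc9b2, Slc9a7 and Slc9a8 fell by 3.61, 1.16 and 0.73 on the log2 scale, with only 4 counts of Slc9b2 over the BE libraries. The Slc9a5 call ended without BE replicates 2 or 3 or NC replicates 1 or 2, those of Slc9a7 and Slc9a8 when any 1 library except BE replicate 1 was left out, and that of Slc9b2 when any 1 except BE replicate 3 was. The calls of Slc9a7, Slc9a8 and Slc9b2 also ended with the replicate block (adjusted p = 0.073, 0.065 and 0.092) and without TMM (0.087, 0.14 and 0.059), and that of Slc9b2 with DESeq2 (0.0504) and with no filter (0.11). Chp1, a calcineurin B-like partner of these exchangers, did not pass.

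Proton pumps were represented by the vacuolar ATPase, which acidifies lysosomes and, in some epithelia, the cell exterior. Of 19 genes tested, 8 rose, 1 fell and 10 did not pass, beside 21.8% of all genes in each direction. The median was 0.43, beside 0.03 over all genes. Atp6v0a4, a membrane-domain subunit known from acid-secreting cells, averaged 77.2 ± 12.1 CPM in BE and 15.3 ± 5.81 CPM in NC (2.33 ± 0.26). Atp6v1b2, Atp6v1a and Atp6v0c rose by 1.07, 0.83 and 0.82, and Atp6v0e2, named to complete the count, fell by 1.41 on the log2 scale. The paralog Atp6v0a1 (97.1 to 105 CPM in BE and 94.2 to 115 CPM in NC) and Atp6v0d1 (102 ± 7.88 and 105 ± 9.93 CPM, BE before NC) did not pass.

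Of 5 monocarboxylate transporters and partners, which carry lactate together with a proton, Emb rose and 4 did not pass. Of all genes, 21.8% rose. Emb, a membrane partner of these transporters, stood at 49.4, 63.3 and 47.6 CPM in BE, against 2.72, 3.29 and 5.24 CPM in NC (3.82 ± 0.27). The transporter Slc16a1 (181 ± 18.8 CPM in BE and 193 ± 34.4 CPM in NC) and the partner Bsg (126 ± 20.2 CPM in BE and 116 ± 12.1 CPM in NC) did not pass. Of 7 proton sensors and channels, 1 rose and 6 did not pass, beside 21.8% of all genes that rose. The 6 included the proton channel Otop3 and the acid-sensitive channel Trpv1. The receptor Gpr4 rose by 1.61 ± 0.57, a call near the threshold (edgeR, adjusted p = 0.042). The Gpr4 call ended when any 1 library except BE replicate 1 was left out, with the replicate block (0.074) and with no filter (0.063).

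**Figure D4:**
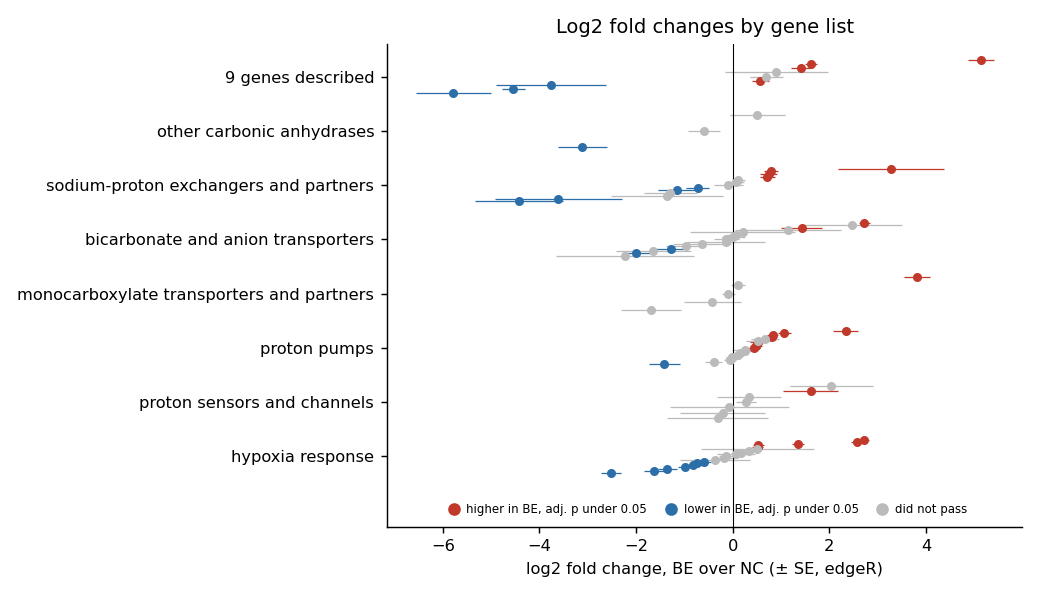
Log2 fold change of BE over NC with its SE for the 9 genes described, 6 lists of other acid-base genes and a hypoxia list, one point per gene tested; Car7, which has no count in BE, is left out. Red points rose, blue points fell and grey points did not pass at an adjusted p of 0.05, and Car2 at 5.13 and Car14 at -5.78 are the outermost of the 9.

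Car9 and Car12 are known targets of hypoxia-inducible factor, so a hypoxia list was read beside them. Of 19 genes tested, 5 rose, 7 fell and 7 did not pass, with a median log2 fold change of -0.14, beside 21.8% of all genes in each direction. The balance turned round without TMM, where 7 rose and 5 fell. Hif1a, which encodes the oxygen-regulated subunit of that factor, averaged 845 ± 27.4 CPM in BE and 129 ± 9.09 CPM in NC (2.72 ± 0.10), and the glucose transporter Slc2a1 averaged 324 ± 27.2 CPM in BE and 54.3 ± 6.39 CPM in NC (2.58 ± 0.13). Ndrg1, a further hypoxia-induced gene, rose by 1.35 ± 0.12, and the glycolytic genes Ldha and Hk2, named to complete the count, by 0.53 and 0.51. Bnip3, a mitophagy receptor, fell to 23.0 ± 6.49 CPM in BE, against 132 ± 15.7 CPM in NC. The other 6 that fell, given after their values were seen, were Egln3 (-1.62), Pfkfb3 (-1.35), P4ha1 (-0.98), Egln1 (-0.83), Bhlhe40 (-0.74) and Epas1 (-0.60). Pgk1 and Kdm3a did not pass.

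Promoter sequences were available for 6 of the 9 genes, from RefSeq on GRCr8, as windows of 250 bases before and 50 after an annotated start. The letters ACGTG, the core of the hypoxia response element, were searched on both strands. They occur in 5 of the 6 windows, all but that of Slc4a2, and in 19.3% of 33469 windows of the same length. G and C made up 57.7% to 75.0% of the 6 windows, against a median of 51.7% over all windows. The part of this in the matches was not tested. A match is a description of the letters and not of binding. Shown are the windows of the carbonic anhydrases among the 6: Car12, which rose, Car9, which did not pass, and Car14 and Car4, which fell. The part of these letters in any change was not tested. Capitals mark ACGTG or its reverse complement.
Car12 (GRCr8, chr8:76169565-76169864, plus strand): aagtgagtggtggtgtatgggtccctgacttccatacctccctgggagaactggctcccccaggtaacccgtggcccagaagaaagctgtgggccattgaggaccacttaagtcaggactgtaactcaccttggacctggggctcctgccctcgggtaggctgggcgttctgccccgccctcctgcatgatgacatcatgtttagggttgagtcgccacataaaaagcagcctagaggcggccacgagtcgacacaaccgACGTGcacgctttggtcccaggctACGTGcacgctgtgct
Car9 (GRCr8, chr5:62558774-62559073, plus strand): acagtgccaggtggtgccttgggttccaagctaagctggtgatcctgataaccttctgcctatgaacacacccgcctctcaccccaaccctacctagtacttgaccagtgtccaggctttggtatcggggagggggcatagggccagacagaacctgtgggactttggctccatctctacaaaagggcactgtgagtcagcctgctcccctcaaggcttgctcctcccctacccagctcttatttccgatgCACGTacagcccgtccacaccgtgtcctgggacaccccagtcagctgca
Car14 (GRCr8, chr2:186138115-186138414, minus strand): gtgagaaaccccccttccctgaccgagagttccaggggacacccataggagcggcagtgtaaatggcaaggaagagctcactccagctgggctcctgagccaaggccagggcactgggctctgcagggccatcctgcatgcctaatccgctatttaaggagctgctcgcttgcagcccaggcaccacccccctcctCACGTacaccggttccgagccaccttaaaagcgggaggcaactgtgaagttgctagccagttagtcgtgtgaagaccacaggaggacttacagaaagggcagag
Car4 (GRCr8, chr10:70325108-70325407, plus strand): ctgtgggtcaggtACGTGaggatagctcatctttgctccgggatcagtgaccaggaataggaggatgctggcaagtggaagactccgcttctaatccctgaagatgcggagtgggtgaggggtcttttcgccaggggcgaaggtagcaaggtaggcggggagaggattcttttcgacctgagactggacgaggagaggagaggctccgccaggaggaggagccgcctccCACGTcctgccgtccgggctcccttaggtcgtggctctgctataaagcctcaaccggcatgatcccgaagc
The letters stand 2 times in the window of Car12 and of Car4, and 1 time in that of Car9 and of Car14. In Car12 and Car9 they lie after the annotated start, in Car9 by only 1 base, and in Car14 and Car4 before it. They also lie before the start in Slc9a3, which did not pass and whose window is not shown. CAGCTG, an E-box that myogenic factors bind, occurs in Car14 and Car9 among the 6 and in 15.1% of all windows.

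The m6A lists held few peaks for these genes. Across the 6 IP lists, 9 of 113141 peaks were named for them, on 5 of the 9 genes, where 73.2% of all tested gene symbols had a peak in at least 1 list. None of the 9 had a peak in all 6 lists, where 46.9% of tested symbols did. None had peaks in all 3 BE lists and no NC list (1.83% of tested symbols) or in all 3 NC lists and no BE list (1.70%). BE lists held 1, 2 and 2 such peaks, against 0, 2 and 2 in NC lists (two-sided exact permutation test, p = 1.0). How deeply the IP libraries were sequenced is unknown, so a missing peak means only that none was listed.

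Peak positions are given as the lists have them, with the first base counted as 1; the build behind them is not stated, and exon or UTR positions were not analysed here. On Car12, BE replicate 2, NC replicate 2 and NC replicate 3 shared a peak of identical bounds, chr8:72125050-72125119. In each list, 79.0% to 85.9% of peaks had the same bounds as a peak of another list. The score on Car12, -10 times log10 of the p-value, was 523 in BE replicate 2, against 444 and 353 in NC replicates 2 and 3, with the authors' fold enrichment at 6.06 in BE and 5.59 and 6.68 in NC. It was thus present in both states, in the gene that rose.

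On Slc4a2, BE replicates 2 and 3 shared chr4:7292455-7292587, with scores of 59.3 and 112 and fold enrichments of 5.96 and 6.91. NC replicate 3 had its only Slc4a2 peak 15241 bp away, at chr4:7276960-7277213, with a score of 62.5 and a fold enrichment of 4.64. The BE region was seen in 2 of 3 BE lists and in no NC list, and the NC region in 1 of 3 NC lists and in no BE list. Scores of 59.3 and 62.5 are close to 50, the lowest score in the lists.

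The remaining peaks were each in 1 list. Car2 had a peak of 42 bp at chr2:107886741-107886782 in BE replicate 1, with a score of 130 and a fold enrichment of 5.35, although its transcript level was high in all 3 BE libraries. Car13 had chr2:108062615-108062770 in BE replicate 3 (score 77.5, fold enrichment 4.03), and Car14 had chr2:217507131-217507185 in NC replicate 2 (score 238, fold enrichment 5.77), the NC library in which its level was highest. Car3 had no peak in any list at 5412 to 6346 CPM in the NC input libraries, and Car4, Car9 and Slc9a3 had none either. Fold enrichment was under the median of the list, 8.59 to 13.4, for each of the 9 peaks.

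**Figure D5:**
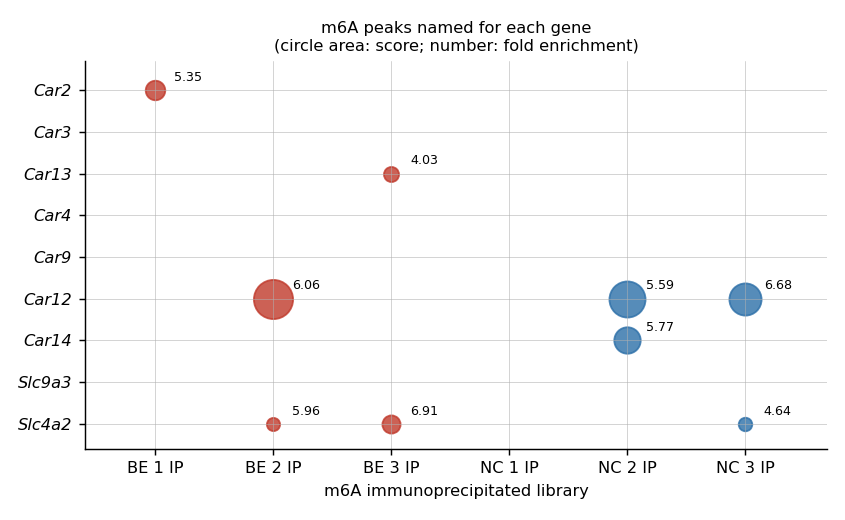
Peaks named for each of the 9 genes in the 3 BE and 3 NC IP libraries; circle area is proportional to the score and the number beside it is the authors' fold enrichment. Car12 has the highest scores, in BE replicate 2 and NC replicates 2 and 3, and Car3, Car4, Car9 and Slc9a3 have no circle.

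Over the 6 acid-base lists, 36 of 63 tested genes (57.1%) had a peak in at least 1 list and 18 (28.6%) had one in all 6, beside 73.2% and 46.9% of all tested symbols. The 4 other carbonic anhydrases had none. Slc9a9 and Slc9a3r1 had a peak in every list. Slc4a7 had one in 3 BE lists and 1 NC list, Emb in 1 BE list and no NC list, and Atp6v0a4 in none. Slc9a2, which fell to 0.196 CPM in BE, had peaks in all 3 NC lists and no BE list, and Atp6v0a1, at about the same level in both groups, had peaks in all 3 BE lists and no NC list. Asic2, an acid-sensing channel named after its values were seen, also had peaks in all 3 BE lists only. It did not pass and was rare, with 14, 5 and 12 counts in BE input libraries and 8, 9 and 8 counts in NC. Of all tested symbols, 1.83% had peaks in all BE lists only and 1.70% in all NC lists only.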

How the data were processed

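The genes and lists described here were chosen with earlier results of these data known. The submitters' processing notes name cutadapt 1.9.3 and HISAT2 2.0.4. The sources used here do not state the genome build, annotation, counting tool, use of strand or peak caller version, so reads of overlapping antisense genes cannot be told apart. The authors deposited raw counts per gene for 6 input libraries, while their 6 normalized columns were left aside. One deposited peak list per IP library was read, with MACS in the peak names. Per the file headers it gives a score of -10 times log10 of p and a fold enrichment per peak; both are the authors' values and serve only to describe or filter peaks within a list. Length equals end minus start in every peak, so 1 was added to each start.

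Counts were tested in R 4.3.3 with edgeR 4.0.16 (filterByExpr with a minimum of 10 counts, TMM, robust quasi-likelihood test of BE against NC without covariates, two-sided, Benjamini-Hochberg adjustment over 13761 genes); the procedure was tested on simulated data. The SE is the size of the log2 fold change divided by the square root of F. CPM used the effective library sizes. Alternatives were RLE factors, DESeq2 1.42.0, voom from limma 3.58.1 with library weights, no filter, no TMM, the replicate block and leaving out each library. Named were all 9 genes and, from each further list, up to 4 genes that passed, by p, and up to 2 that did not, by level; genes that complete a count of 5 or fewer were added afterwards, and 2 genes of the rule are not reported here. Peaks of a gene were merged over 1 bp or more of overlap. Floors cover counting error only, since reads are not independent molecules.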

Additional observations from a re-analysis of the deposited data

How the results depend on the processing

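Car2, Car3, Car12, Car13 and Car14 kept their direction and their call under all 12 alternatives, with log2 fold changes of 4.94 to 5.43, -4.85 to -4.26, 1.24 to 1.69, 1.56 to 1.91 and -6.97 to -5.22. Without TMM, a setting added after the data were seen, 4536 genes passed upwards and Slc9a3 (0.97), Chp1 (0.39), Bsg (0.40) and Pgk1 (0.45) passed, Slc9a7, Slc9a8 and Slc9b2 lost their calls, and genes that had not passed changed sign: Slc16a1 (0.20), Atp6v0a1 (0.22), Atp6v0d1 (0.25) and Kdm3a (0.14). Slc26a9 was at -0.018 with DESeq2, -0.016 with RLE factors and -0.036 with voom. With 1 input library left out, Car4 ranged from -5.93 to -3.19 and Slc4a2 from 0.42 to 0.68, and genes that did not pass crossed 0: Slc26a9 (-0.22 to 0.14), Slc16a1 (-0.19 to 0.058), Car8 (-0.015 to 0.78), Bsg (-0.029 to 0.20), Trpv1 (-0.41 to 0.65), Slc26a2 (-0.13 to 0.26), Chp1 (-0.013 to 0.18) and Atp6v0d1 (-0.11 to 0.027). The causes were not tested. The same replicate number carried no shared deviation (r of -0.041, 0.0065 and -0.073 between BE and NC libraries of the same number); with the replicate number as a block, 2540 genes rose and 2683 fell, and the same 4 of the 9 genes rose and 3 fell, while Gpr4, Slc9a7, Slc9a8 and Slc9b2 lost their calls. With 1 IP library left out, the BE minus NC difference in peaks on the 9 genes ran from -0.33 to 0.67 per list. The low counts of Car4, Car9 and, in BE, Car14 limit what their fold changes can show.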
